A study of Mus musculus with 16 samples.

Results

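The genes described here are 6 leukocyte and vascular adhesion genes, Sele, Selp, Selplg, Vcam1, Icam1 and Icam2, out of 24562 entries in the count table, 24445 of which carry a gene name. They were chosen by symbol, and each was represented by 1 RefSeq transcript, so no choice among transcripts was needed. Expression was measured by RNA sequencing in B1b cells, an innate-like B cell subset that was sorted out of peritoneal lavage fluid, and in whole aortas. All mice were ApoE-/-, a strain that lacks apolipoprotein E and is prone to atherosclerosis. Within each kind of sample, libraries labelled wt (wild type) were set against libraries labelled cre, the genotype that the series describes as lacking CD40 in B cells only. There were 3 wt and 3 cre libraries of B1b cells, and 5 wt and 5 cre libraries of aorta. The labels do not name the promoter that drives the recombinase, the age, sex or diet of the mice, or whether each library came from a separate animal. P-values therefore measure the spread between these libraries, which may be technical.

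Leukocytes leave the blood in steps. Selectins on activated endothelium and platelets bind sugar-bearing ligands on the leukocyte and slow it to a roll, and leukocyte integrins, once activated, then hold it on immunoglobulin-family molecules of the endothelial surface. E-selectin (Sele) is made by endothelium on exposure to inflammatory cytokines, P-selectin (Selp) is stored in endothelial and platelet granules, and PSGL-1 (Selplg) is their main leukocyte ligand. VCAM-1 (Vcam1) binds the integrin VLA-4, and ICAM-1 and ICAM-2 (Icam1 and Icam2) bind the integrin LFA-1. In atherosclerosis these molecules are studied for the entry of monocytes and lymphocytes into the artery wall.

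On the mouse genome GRCm38, Sele (chromosome 1, 164039614 to 164058487, plus strand, 14 exons) and Selp (chromosome 1, 164115264 to 164150026, plus strand, 16 exons) are on the same chromosome. Selplg is on chromosome 5 (113817798 to 113832528, minus strand, 2 exons). Vcam1 is on chromosome 3 (116110020 to 116129688, minus strand, 9 exons). Icam1 is on chromosome 9 (21015940 to 21028814, plus strand, 7 exons), 618 bases before Icam4. Icam2 is on chromosome 11 (106377656 to 106388139, minus strand, 4 exons). The long noncoding RNA Gm51665 overlaps Sele and Gm16548 overlaps Selp. Whether strand was used in counting is not given in the sources used here, so reads of each pair cannot be told apart.

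RefSeq promoter windows, each 250 bases before to 50 after a transcription start on GRCm38.p6, were matched for 3 of the 6 genes. All 3 are shown, and they were not picked by level. In the samples Sele was low and variable, and Selp was mostly aortic. Icam1 was present in both B1b cells and aortas and higher in aortas. Capitals mark matches to GGANNTTCC, a shortened form of the NF-kB recognition sequence, to TGANTCA, the recognition sequence of AP-1, and to TATAAA. The windows lie at chr1:164047984-164048283 for Sele, chr1:164115014-164115313 for Selp and chr9:21015690-21015989 for Icam1, all on the plus strand and written 5′ to 3′. The Sele window lies inside the longer gene body that the annotation gives.
Sele: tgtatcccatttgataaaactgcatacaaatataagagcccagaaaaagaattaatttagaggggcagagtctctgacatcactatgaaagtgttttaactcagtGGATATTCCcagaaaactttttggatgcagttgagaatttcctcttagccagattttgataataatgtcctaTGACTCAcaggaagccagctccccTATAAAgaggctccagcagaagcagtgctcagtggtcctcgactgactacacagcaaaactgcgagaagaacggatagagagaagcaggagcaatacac
Selp: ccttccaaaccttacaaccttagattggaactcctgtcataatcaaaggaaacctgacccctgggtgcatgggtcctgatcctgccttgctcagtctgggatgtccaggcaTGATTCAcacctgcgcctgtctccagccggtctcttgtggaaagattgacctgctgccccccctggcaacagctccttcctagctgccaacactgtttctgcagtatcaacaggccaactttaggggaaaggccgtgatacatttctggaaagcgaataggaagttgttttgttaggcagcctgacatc
Icam1: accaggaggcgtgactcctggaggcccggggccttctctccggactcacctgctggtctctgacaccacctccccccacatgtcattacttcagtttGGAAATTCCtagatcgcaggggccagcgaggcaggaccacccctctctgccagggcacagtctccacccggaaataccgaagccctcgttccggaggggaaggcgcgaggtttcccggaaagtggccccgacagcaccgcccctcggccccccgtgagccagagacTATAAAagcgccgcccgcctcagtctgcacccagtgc
Sele held GGATATTCC and Icam1 held GGAAATTCC, and both held TATAAA, starting at base -49 from the transcription start in Sele but at base 14, after the start, in Icam1. The AP-1 sequence occurred in Sele as TGACTCA and in Selp as TGATTCA. Searched on both strands, GGANNTTCC occurred in 4.3% of all 32817 windows of this length, GGAAATTCC, which is one form of it, in 0.3%, TGANTCA in 7.8% and TATAAA in 13.6%. GGANNTTCC was added to the search after the sequences had been seen. The full NF-kB consensus, found in 8.5% of windows, matched none of the 3. The Icam1 window had the highest GC content of these, 64.7%, against 51.7% for Selp, 41.7% for Sele and a median of 52.7% over all windows. No assay of factor binding or chromatin was analysed here, so these matches describe letters only.

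Summed over the transcripts kept, 1 per gene, counts were between 6815829 and 9911226 per B1b library and between 1645926 and 7300894 per aortic library. By this sum, wild-type aorta 5 and cre aorta 2 had under 2000000. Over all transcripts, totals were 11806285 to 17155996 for B1b libraries and 2744865 to 12398750 for aortas. Levels below are read counts scaled to a common library total (CPM), with TMM normalization. Cd40 itself was not lower in cre B1b cells beyond the replicate spread. The wild-type libraries had 39.2, 34.4 and 37.6 CPM and the cre libraries 30.7, 29.5 and 38.4 CPM (log2 fold change -0.16, adjusted p = 0.679, edgeR). The counts are per whole transcript and do not show whether an exon was deleted. The 10 B cell markers summed to at least 8767 CPM in every B1b library and to at most 219.8 CPM in any aorta. The endothelial marker Cdh5 stood at 117.2 to 206.7 CPM in aortas and at 0.430 to 1.44 CPM in B1b cells.

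The genotype comparison in B1b cells asked whether adhesion genes differed when the B cells were labelled as CD40-deficient. None of the 5 genes that could be tested passed the threshold of an adjusted p under 0.05 (edgeR quasi-likelihood test, Benjamini-Hochberg over all genes), where 0.707% of all 11732 genes tested passed. The 2 with an unadjusted p under 0.05 were Selplg and Icam2, and 13.3% of all genes tested had one. The median log2 fold change of the 5 was -0.11, against -0.005 for all genes tested. Vcam1 had too few reads to be tested.

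Selplg, the ligand gene, was the adhesion gene with the smallest p in B1b cells. It was measured at 130.5, 125.8 and 133.1 CPM in the wild-type libraries. The cre libraries had 159.0, 153.4 and 181.2 CPM. All 3 cre values lay above all 3 wild-type values, with means of 164.5 ± 14.7 and 129.8 ± 3.70 CPM (SD, n = 3 each). The log2 fold change was 0.35 (SE 0.09, 95% interval 0.17 to 0.53), with an unadjusted p of 0.000643 and an adjusted p of 0.0691 in edgeR. It thus missed the threshold, as the 109th gene by p. It was past the threshold with DESeq2 (adjusted p = 0.0226) and in edgeR with no filter on low counts (adjusted p = 0.0110). No other alternative run called it, and without any 1 library the adjusted p ranged from 0.0987 to 0.174. Groups did not overlap for 1 of the 6 genes, this one, and for 17.9% of all genes tested. PSGL-1 is also carried by myeloid cells, and most genes listed as markers of those cells had a fold change above 0 in cre B1b libraries. The 14 macrophage and monocyte markers summed to 294.4 to 485.7 CPM in wild-type and 572.4 to 619.6 CPM in cre B1b libraries. Most of each sum came from Itgam and Lyz2. Itgam had 155.3 to 193.6 CPM in wild-type and 186.2 to 206.5 CPM in cre libraries. In wild type its median was higher in B1b cells (190.2 CPM) than in aortas (119.9 CPM), so its reads cannot be assigned to myeloid cells here. Lyz2 had 57.0 to 144.7 CPM in wild-type and 191.7 to 237.1 CPM in cre B1b libraries. Of the 12 markers on this list that were tested, 11 were above 0 on the log2 scale (median 0.82), and 5 had an unadjusted p under 0.05. Csf1r, the receptor of the macrophage growth factor CSF-1, was the 1 that passed the threshold, with 8.55 CPM in wild type and 17.0 CPM in the cre libraries on average (adjusted p = 0.0357). The 1 below 0 was Adgre1, which encodes the macrophage antigen F4/80 (adjusted p = 0.578). The part of myeloid RNA in the Selplg difference was not tested.

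Icam2, a constitutive ligand of LFA-1 on endothelium and lymphocytes, had a fold change of the opposite sign. Its level was 42.9, 58.6 and 52.6 CPM in wild-type and 33.9, 40.4 and 44.5 CPM in cre B1b libraries. The lowest wild-type library lay below the highest cre library, so the groups overlapped. The log2 fold change was -0.36 (SE 0.13, 95% interval -0.64 to -0.09, unadjusted p = 0.0131, adjusted p = 0.231, edgeR). Icam1, the cytokine-inducible relative of Icam2, had 59.3, 51.8 and 52.7 CPM in wild type. In cre B1b cells it had 58.3, 42.9 and 49.7 CPM. The Icam1 groups overlapped, and its log2 fold change of -0.11 had an interval from -0.36 to 0.13 (adjusted p = 0.755).

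The 2 vascular selectins were low in B1b cells of both genotypes. Sele had 4.69, 4.93 and 4.89 CPM in wild-type and 5.99, 5.30 and 3.76 CPM in cre B1b libraries (log2 fold change 0.05, 95% interval -0.66 to 0.76, adjusted p = 0.970). For Selp, wild-type libraries held 6.44, 6.49 and 2.22 CPM and cre libraries 5.24, 3.58 and 2.24 CPM (log2 fold change -0.45, 95% interval -1.39 to 0.48, adjusted p = 0.735). The third library of each genotype held the lowest Selp value, and the ranges overlapped. The 12 platelet markers summed to 3.86 to 8.89 CPM over the 6 B1b libraries, and their part in the Selp level was not tested. The 19 endothelial markers other than Pecam1, a gene that B cells share, summed to 6.45 to 15.3 CPM there. Vcam1 was at the limit of detection, with 3 counts in 5 of the 6 libraries and 6 counts in the other. That equals 0.402, 0.389 and 0.333 CPM for the wild-type and 0.374, 0.430 and 0.610 CPM for the cre libraries. Tested with no filter on low counts, its log2 fold change was 0.35 with an interval from -2.23 to 2.93 (adjusted p = 0.949), so no genotype difference was detectable at this depth.

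**Figure D1:**
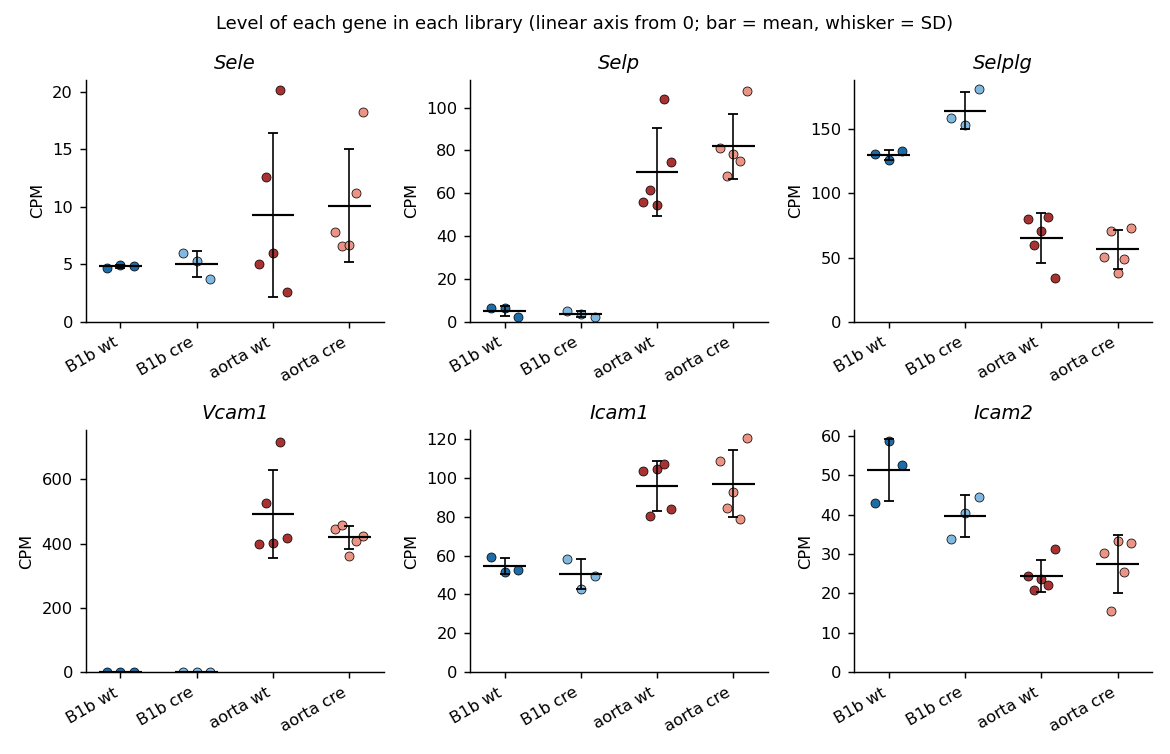
Level of each adhesion gene (CPM, linear axes from 0) in every library. Each point is a library, the bar is the group mean and the whisker the SD (n = 3 for B1b, 5 for aorta). Selplg is the gene whose cre B1b libraries (153.4 to 181.2 CPM) all lie above the wild-type ones (125.8 to 133.1 CPM), and for each of the 6 genes the wild-type and cre aortas overlap.

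In aortas none of the 6 genes differed between the genotypes beyond the replicate spread. Adjusted p-values ran from 0.600 to 0.972 in edgeR, no unadjusted p was under 0.05, and DESeq2 and limma-voom also called none. The share of all 13364 genes tested that passed was 0.015%. Wild-type and cre aortas overlapped for every one of the 6, while 2.88% of all genes did not overlap. A whole aorta is a mixture, in which fewer cells of a type and less RNA per cell cannot be told apart.

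Sele was the most variable of the genes in the artery. Wild-type aortas had 4.99, 12.6, 5.99, 20.1 and 2.64 CPM, a 7.62-fold range. These values rest on 5 to 142 counts per library in wild type, and on 11 to 118 in cre. The 5 counts are those of wild-type aorta 5, a library under 2000000 counts. Counting error is therefore part of this spread and was not separated from it. Cre aortas had 7.83, 6.62, 6.64, 11.2 and 18.2 CPM, a 2.75-fold range. The coefficient of variation in wild type was 76.7%, against 13.3% to 29.8% for the other 5 genes in the same aortas. The log2 fold change was 0.10 (SE 0.46, 95% interval -0.89 to 1.09, adjusted p = 0.941). Selp was steadier, at 56.1, 61.5, 54.6, 104.1 and 74.5 CPM in wild type. In cre aortas it was 81.0, 68.0, 78.3, 75.2 and 107.7 CPM. Wild-type aorta 4 and cre aorta 5 held the highest values of both selectins in their groups. The Selp log2 fold change was 0.23 (SE 0.19, 95% interval -0.17 to 0.63, adjusted p = 0.632). Platelet markers summed to 61.8 to 133.5 CPM in wild-type and 89.4 to 162.5 CPM in cre aortas. None of the 7 tested passed the threshold or had an unadjusted p under 0.05, but 6 were above 0 on the log2 scale. The median of the 7 was 0.39, against 0.002 for all genes tested. Their part in the Selp level was not tested.

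Vcam1, the VLA-4 ligand, was abundant in the artery. The wild-type aortas had 397.6, 526.2, 402.0, 716.5 and 417.0 CPM. The cre aortas had 445.1, 456.5, 361.8, 408.7 and 421.8 CPM. Wild-type aorta 4 stood highest, and the spread was 27.7% of the mean in wild type and 8.8% in cre. The fold change was -0.23 on the log2 scale (SE 0.17, 95% interval -0.60 to 0.14, adjusted p = 0.600). For Icam1 the wild-type aortas had 103.6, 80.0, 104.4, 106.9 and 84.0 CPM, and the cre aortas 108.7, 84.3, 92.8, 78.6 and 120.5 CPM. Its means of 95.8 ± 12.7 and 97.0 ± 17.4 CPM (SD, n = 5 each) were the closest pair of the 6, and the interval ran from -0.30 to 0.33. Icam2 had 24.5, 20.9, 23.7, 22.1 and 31.2 CPM in the wild-type and 30.3, 15.7, 33.2, 25.5 and 32.7 CPM in the cre aortas (log2 fold change 0.20, 95% interval -0.23 to 0.62, adjusted p = 0.697). The low-depth aortas held an end of its range in each genotype, the highest in wild type and the lowest in cre. Selplg had 80.1, 59.5, 70.7, 82.0 and 34.4 CPM in wild-type and 50.4, 71.1, 38.4, 49.2 and 73.2 CPM in cre aortas (log2 fold change -0.23, 95% interval -0.73 to 0.27, adjusted p = 0.701). Macrophage and monocyte markers summed to 2814 to 6457 CPM in wild-type and 3970 to 7126 CPM in cre aortas. Both Selplg and that sum were lowest in wild-type aorta 5. Of the 13 such markers tested, none passed and 5 were above 0 on the log2 scale (median -0.024). Their part in the Selplg level was not tested. Mesothelial cells can also carry ICAM-1 and VCAM-1, and their 7 marker genes summed to 31.1 to 63.4 CPM in wild-type and 66.9 to 161.4 CPM in cre aortas. None of the 7 passed the threshold, but all 7 were above 0 on the log2 scale (median 1.01), and 5 had an unadjusted p under 0.05. Heart and skeletal muscle markers summed to 696.9 to 3071 CPM in wild-type and 884.6 to 7789 CPM in cre aortas. None passed, but all 13 tested were above 0 (median 1.435) and 7 had an unadjusted p under 0.05. Fibroblast markers lay mostly the other way, with sums of 19352 to 26044 CPM in wild-type and 12843 to 22254 CPM in cre aortas. None of the 9 tested passed, 6 were below 0 and 3 above (median -0.231), and 5 had an unadjusted p under 0.05. Of all genes tested in aortas, 12.6% had one. The part of such cells and tissue in the levels above was not tested.

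**Figure D2:**
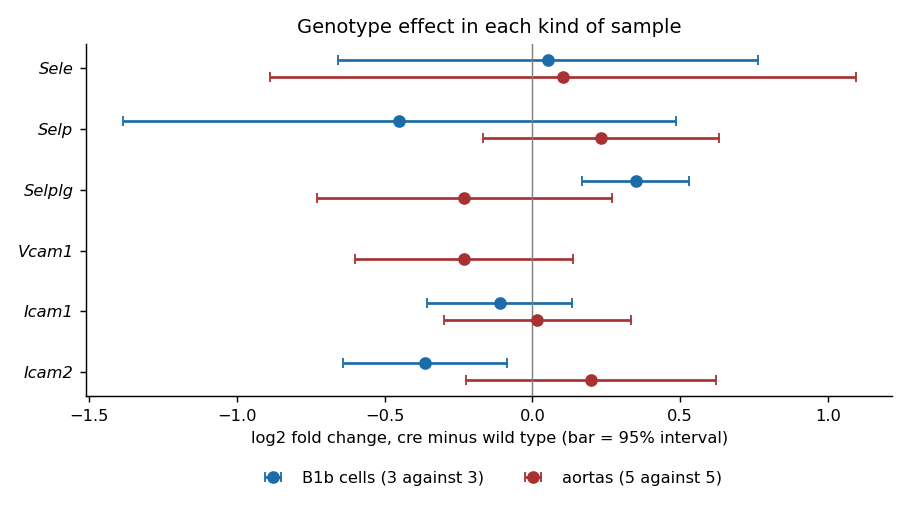
Log2 fold change of each gene, cre minus wild type, with its 95% interval from edgeR, in B1b cells (blue, 3 against 3) and aortas (red, 5 against 5). Selplg (0.17 to 0.53) and Icam2 (-0.64 to -0.09) in B1b cells are the intervals that exclude 0 before adjustment over all genes, every aortic interval includes 0, and Vcam1 has no B1b value.

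Selp, Selplg, Icam1 and Icam2 had fold changes of opposite sign in the 2 kinds of sample, and the difference of the genotype effects was tested in 1 fit over all 16 libraries. None of the 6 genes passed, and 0.0199% of all 15091 genes did. For Selplg the effect was higher in B1b cells by 0.58 on the log2 scale (95% interval -0.08 to 1.24, adjusted p = 0.506, edgeR). The difference for Icam2 was -0.59 (95% interval -1.17 to 0.003, unadjusted p = 0.0512, adjusted p = 0.453). Selp had the largest difference, -0.68 (95% interval -1.64 to 0.28, adjusted p = 0.608). The other 3, Vcam1, Icam1 and Sele, had adjusted p-values from 0.729 to 1. A genotype effect particular to B1b cells was therefore not shown for any of them. No unadjusted p among the 6 was under 0.05 for this contrast, and DESeq2 and limma-voom called none.

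The contrast between the kinds of sample was larger than that between the genotypes. In wild type, Selplg and Icam2 were higher in B1b cells, Vcam1, Selp and Icam1 were higher in aortas, and Sele did not pass. Of all 15091 genes tested in edgeR, 33.4% were higher in B1b cells and 38.7% higher in aortas, so a call in this contrast was common. The median over all genes was -0.12 on the log2 scale, B1b minus aorta. DESeq2's size factors moved that median by -0.16 in wild type and -0.12 in cre, which touched the calls of Sele and, in cre, of Icam2. Selplg was 1.99-fold higher in B1b cells (log2 fold change 0.97, SE 0.22, adjusted p = 0.000563). Icam2 was 2.1-fold higher (log2 fold change 1.09, SE 0.20, adjusted p = 6.24e-05). Every wild-type B1b library lay above every wild-type aorta for both genes.

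On the arterial side, Vcam1 was the extreme case. Its aortic libraries held 12449 counts in wild type and the B1b libraries held 9, a ratio of 1390 after scaling for depth (95% interval 733 to 3040, counting error only). In cre the same ratio was 856 (95% interval 490 to 1660), from 9866 and 12 counts. Selp was 13.9-fold higher in wild-type aortas (log2 fold change -3.81, SE 0.34, adjusted p = 1.19e-08). Icam1 was 1.76-fold higher there (log2 fold change -0.82, SE 0.16, adjusted p = 0.000148), the smallest difference among those that passed. Sele averaged 4.84 ± 0.126 CPM in wild-type B1b cells and 9.27 ± 7.10 CPM in aortas (SD, n = 3 and 5). Its wild-type aorta 5, at 2.64 CPM, lay below all the wild-type B1b libraries. The log2 fold change of Sele was -0.99 (SE 0.49, adjusted p = 0.0808). It passed with DESeq2 (adjusted p = 0.0337), with DESeq2's size factors in edgeR (0.0464) and without the 2 low-depth aortas (0.0275). It also passed without wild-type aorta 5 (adjusted p = 0.0277) and without wild-type aorta 1 (adjusted p = 0.0435). The log2 fold change fell to -0.48 (adjusted p = 0.353) without wild-type aorta 4.

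The cre libraries gave the same directions, with 32.8% of all genes higher in B1b cells and 42.3% higher in aortas. Selplg was 2.91-fold higher in cre B1b cells (log2 fold change 1.55, adjusted p = 3.29e-06). Selp was 22.3-fold higher in cre aortas (log2 fold change -4.49, adjusted p = 2.07e-09), and Icam1 1.93-fold (log2 fold change -0.95, adjusted p = 2.86e-05). Icam2 was 1.44-fold higher in cre B1b cells (log2 fold change 0.50, adjusted p = 0.0270). That call was lost with DESeq2 (adjusted p = 0.0738) and with DESeq2's size factors in edgeR (0.085). It was also lost without cre B1b library 2 (0.0819), without cre B1b library 3 (0.0831) and without cre aorta 4 (0.0519). Sele did not pass in cre either (log2 fold change -1.04, adjusted p = 0.0636), although the 2 groups did not overlap. It passed there with DESeq2 (adjusted p = 0.0309), with DESeq2's size factors in edgeR (0.0436) and with limma-voom (0.0273). It also passed without the 2 low-depth aortas (0.0387), without cre aorta 3 (0.0473) and without wild-type aorta 4 (0.0385) or 5 (0.0403). Wild-type libraries enter this contrast through the filter, scaling and spread shared in the fit. With another library left out the adjusted p reached 0.229.

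Per kilobase of transcript, which allows genes to be ranked, the order of levels differed between the kinds of sample. In wild-type B1b cells Selplg led with a mean of 70.0 CPM per kb, followed by Icam2 at 40.1, Icam1 at 21.5, Sele at 1.66, Selp at 1.47 and Vcam1 at 0.108. Only Sele and Selp, neighbours in that order, had overlapping ranges. In wild-type aortas Vcam1 led at 141.8 CPM per kb. Icam1 at 37.8, Selplg at 35.2, Selp at 20.4 and Icam2 at 19.1 followed, and each of these overlapped its neighbour in the order. Sele was last at 3.18 CPM per kb and did not overlap Icam2. The cre libraries gave the same 2 orders. Vcam1 was thus the highest of the 6 in the artery and the lowest in the sorted cells.

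**Figure D3:**
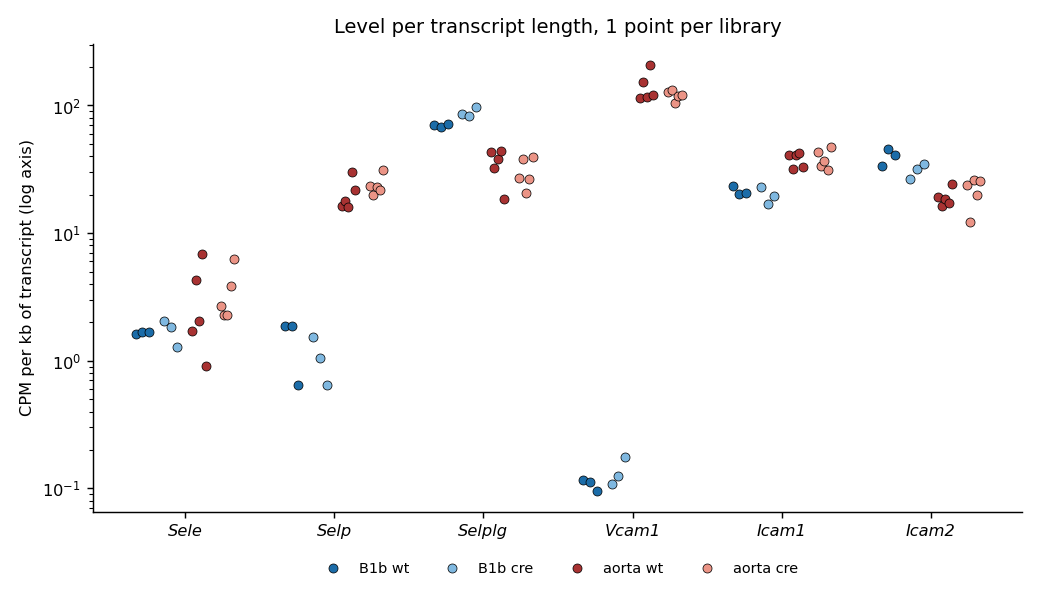
CPM per kilobase of transcript (log axis) of each gene, with 1 point per library, in wild-type and cre B1b cells and aortas. Vcam1 means are 141.8 in wild-type aortas and 0.108 in wild-type B1b cells, while the points of Icam1 in B1b cells and aortas stand within 1 decade.

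Most of these genes can be made by endothelium, though Selplg is a leukocyte gene, and the level of endothelial markers varied between aortas. The mean log2 CPM of 20 endothelial markers, none of them among the 6 genes, was 6.25 ± 0.18 in wild-type and 6.42 ± 0.24 in cre aortas (SD, n = 5 each), a difference of 0.17 (exact permutation test, two-sided, p = 0.230). Taken relative to that mean, no gene differed between the genotypes. The differences, cre minus wild type on the log2 scale, were 0.16 for Sele, 0.08 for Selp, -0.35 for Selplg, -0.36 for Vcam1, -0.16 for Icam1 and -0.04 for Icam2. The exact two-sided permutation p-values ran from 0.175 for Vcam1 to 0.794 for Sele, and from 0.778 to 0.794 after adjustment over the 6. With 5 against 5, the smallest p that this test can give is 0.00794.

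Across the 10 aortas, 21 relations were computed, 15 between pairs of the genes and 6 with the endothelial marker mean. Only that of Icam2 with the endothelial markers passed. Its Pearson r was 0.864 (permutation p = 0.00129, adjusted p = 0.0271) and its Spearman rho 0.903 (permutation p = 0.001, adjusted p = 0.021). Without the 2 aortas farthest from the median of Icam2, r was 0.871. Without the 2 low-depth aortas r was 0.88 and the relation no longer passed (adjusted permutation p = 0.117). A value within each genotype was not computed, since each has 5 aortas. In a run on deviations from the genotype means, r lay between 0.864 and 0.88 and the relation passed. Selp came next, with r = 0.686 against the same markers (permutation p = 0.0297, adjusted p = 0.311) and rho = 0.709 (permutation p = 0.0263, adjusted p = 0.273). The 2 selectins had r = 0.602 with each other (permutation p = 0.0653, adjusted p = 0.371) and rho = 0.624 (permutation p = 0.0603, adjusted p = 0.316). With the endothelial markers, Selplg had r = -0.528 (permutation p = 0.118, adjusted p = 0.371). Icam1 had 0.303 (permutation p = 0.387, adjusted p = 0.519) and Sele 0.064 (permutation p = 0.86, adjusted p = 0.903). Vcam1 had r = -0.287 with the endothelial markers (permutation p = 0.451, adjusted p = 0.557) and rho = -0.236 (permutation p = 0.515, adjusted p = 0.637). Smooth muscle cells of the artery wall can also make VCAM-1, and the 10 smooth muscle markers summed to 13984 to 19792 CPM in wild-type and 9314 to 24469 CPM in cre aortas. A part of smooth muscle RNA in the Vcam1 level was not tested.

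**Figure D4:**
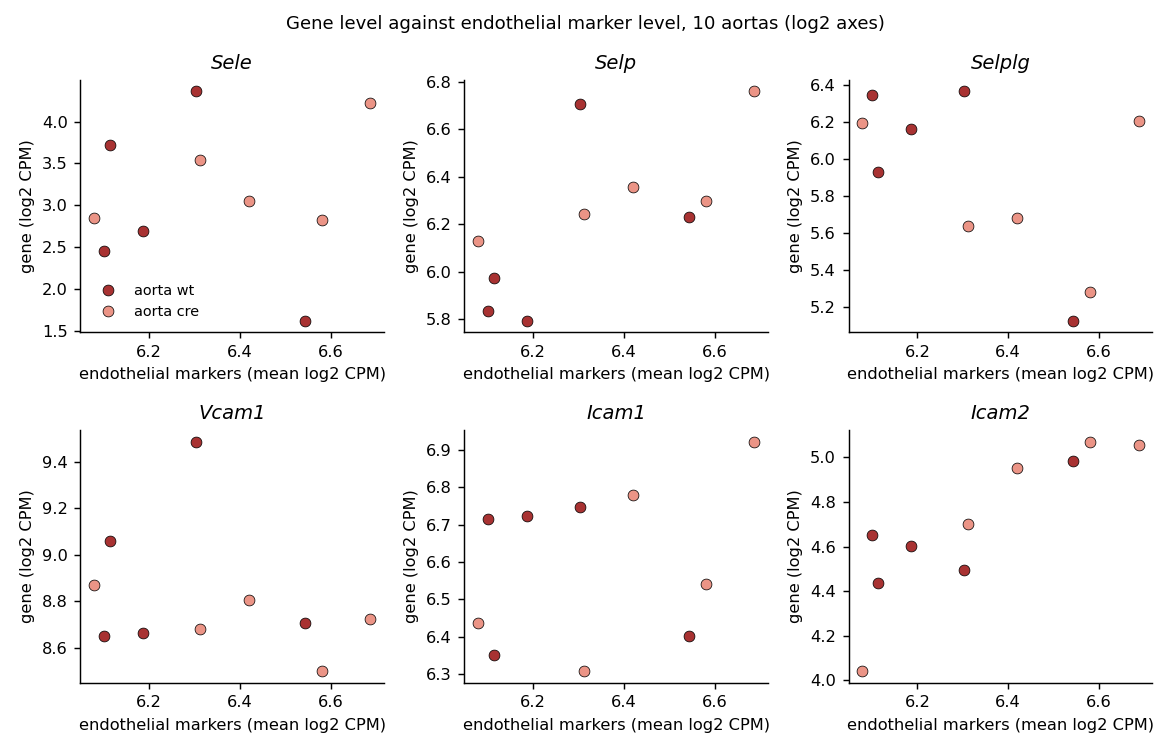
Level of each gene (log2 CPM) against the mean log2 CPM of 20 endothelial markers, with 1 point for each of 5 wild-type and 5 cre aortas. The Icam2 points climb along the axis (r = 0.864), and those of Vcam1 (r = -0.287) do not.

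For each gene, the genes of most similar profile over the 10 aortas were found by the root mean square difference of log2 CPM centred per gene, among 12121 candidates. Icam1 was nearest to Ctsh, a lysosomal cysteine protease gene, at 0.051, and to Acvrl1, a receptor of the TGF-beta family, at 0.095. Selplg was nearest to Lpcat2, a phospholipid-remodelling enzyme gene, at 0.136. Vcam1 was nearest to Pros1, which encodes protein S of the anticoagulant system, at 0.125, and to Pdgfc at 0.128. Icam2 was nearest to Dym at 0.118 and Mrpl20 at 0.124. Selp was nearest to Emilin2 at 0.147 and Prep at 0.167. Sele, whose own spread was the largest of the 6 (SD 0.84 on the log2 scale, against 0.21 to 0.44), was nearest to Mcoln3 at 0.362 and Atp6v0d2, a proton pump subunit of osteoclasts and macrophages, at 0.439. Since the measure grows with a gene's own spread, which for Sele includes counting error, these distances do not rank the 6 genes. The median over all candidates was 0.859 for Sele and 0.373 to 0.514 for the other 5. These are descriptions of 10 libraries.

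The wider adhesion pathway was read in 6 lists. No listed gene passed the threshold between the genotypes in either kind of sample (edgeR). The counts of unadjusted p-values under 0.05 given for each list stand against 13.3% of all genes tested in B1b cells and 12.6% in aortas. The first list held 22 genes of the selectin system, mostly ligands and the enzymes that build their sugars. Of its 14 genes tested in B1b cells, 3 had an unadjusted p under 0.05, and the median log2 fold change was -0.002. B4galt1, a galactosyltransferase that extends ligand glycans, averaged 143.6 ± 3.30 CPM over wild-type B1b libraries and 188.1 ± 27.9 CPM over cre ones (SD, n = 3 each; log2 fold change 0.40, adjusted p = 0.0715). It passed with DESeq2 (adjusted p = 0.0281), and in edgeR with no filter on low counts (0.00157) and without cre B1b library 3 (0.00471). Its adjusted p reached 0.871 in another alternative run and 0.281 with another library left out. St3gal6, a sialyltransferase of selectin ligands, had a log2 fold change of 0.58 (adjusted p = 0.213). In aortas 2 of 19 had an unadjusted p under 0.05, Spn, the sialomucin CD43 of leukocytes (-0.72, adjusted p = 0.375), and Glg1, an E-selectin ligand (-0.36, adjusted p = 0.379), and the median was 0.04.

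Integrins are the receptors on the leukocyte side. Of 12 tested in B1b cells, 4 had an unadjusted p under 0.05, with a median of 0.05. Itgb3, the beta chain of the vitronectin receptor, averaged 7.55 CPM in the wild-type and 3.03 CPM in the cre libraries (log2 fold change -1.31, adjusted p = 0.0838), and Itga5, the fibronectin receptor chain, 14.0 and 21.6 CPM (0.63, adjusted p = 0.129). Itgb3 passed with DESeq2 (adjusted p = 0.0315) and in edgeR with no filter on low counts (0.0258). Its adjusted p reached 0.209 in another alternative run, and was 0.0947 to 0.233 with 1 library left out. The LFA-1 chain Itgal, partner of ICAM-1 and ICAM-2, had -0.20 (adjusted p = 0.262), and the VLA-4 chain Itga4, partner of VCAM-1, 0.18 (adjusted p = 0.742). In aortas the median of the 12 was -0.19, 8 were below 0 and 3 had an unadjusted p under 0.05. Itgb3 (-0.47, adjusted p = 0.315) and Itga9 (-0.50, adjusted p = 0.326) were among these 3. Itgav had the smallest p of them, with 165.4 CPM on average for wild type against 111.1 CPM for cre (-0.57, adjusted p = 0.164). It passed with DESeq2 (adjusted p = 0.0117) and in the edgeR fit over all 16 libraries (0.0464). Its adjusted p reached 0.199 in another alternative run, and was 0.124 to 0.437 with 1 aorta left out.

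Of the listed genes, one among the linkers and activators of integrins came closest to the threshold in B1b cells. Rap1a, a small GTPase that switches integrins on, averaged 98.2 ± 5.69 CPM in the wild-type libraries and 128.1 ± 8.94 CPM in the cre ones (SD, n = 3 each; log2 fold change 0.39, adjusted p = 0.0537), and passed with DESeq2 (adjusted p = 0.0154). Rap1a also passed in edgeR with no filter on low counts (adjusted p = 0.0049) and with the transcript of lowest total (0.0437). In the other alternative runs Rap1a did not pass, with an adjusted p of up to 0.797. Leaving out any 1 B1b library gave it adjusted p-values from 0.0572 to 0.186, all above the threshold. The median of the 18 linkers and activators tested was -0.01, and 4 had an unadjusted p under 0.05. In aortas Vcl, the focal adhesion protein vinculin, had -0.56 (adjusted p = 0.243), 1 of 19 had an unadjusted p under 0.05 and the median was -0.14. Of the other immunoglobulin-family molecules, 11 were tested in B1b cells and 18 in aortas, with medians of -0.04 and 0.14 and 1 unadjusted p under 0.05 in each. L1cam had -0.40 in B1b cells (adjusted p = 0.235). Esam, an endothelial junction molecule that is also among the endothelial markers, had 0.46 in aortas (adjusted p = 0.229).

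Genes that endothelium switches on with cytokines, as it does Sele, Vcam1 and Icam1, gave no unadjusted p under 0.05 in 9 tested in B1b cells or 24 tested in aortas. Their aortic median was 0.01. Il6 had the widest difference among those with the smallest p, with 5.34 CPM for wild type against 12.2 CPM for cre (log2 fold change 1.12, adjusted p = 0.442). Without cre aorta 1 the Il6 value was 0.40 (adjusted p = 0.778). Birc3, an inhibitor of apoptosis, had -0.48 (adjusted p = 0.426). Of 13 regulators of the response to shear and of endothelial quiescence in aortas, 1 had an unadjusted p under 0.05, Hmox1, the gene of heme oxygenase 1 (0.51, adjusted p = 0.355). The median was 0.05, and the flow-responsive factor Klf2 and the nitric oxide synthase Nos3 both had 0.29 (adjusted p = 0.456 and 0.441).

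Between the kinds of sample, in wild type, every list held genes higher on either side. Of the selectin ligand list, 5 genes were higher in B1b cells, 12 in aortas and 3 did not pass. Cd24a, a small sialoglycoprotein of B cells and other leukocytes, was higher in B1b cells (4.31) and Cd34, a sialomucin of endothelium and stroma, in aortas (-9.40). Podxl, another such sialomucin, had 0 counts in the wild-type B1b libraries and 137.8 CPM in aortas. Of the integrins, 4 were higher in B1b cells and 6 in aortas. Itga4 was at 1504 CPM in B1b cells and 50.9 CPM in aortas (4.88), where its ligand Vcam1 was high. Itgal was at 318.6 and 19.4 CPM (4.04), Itgb7 was also higher in B1b cells (4.90), and Itga5 (-4.94) and Itga9 (-8.79) were higher in aortas. Linkers split 11 and 8, with Ezr (4.15) and Rassf5 (3.29) higher in B1b cells and Arhgap29 (-7.75) and Fyb (-5.18) in aortas. Cytokine-induced genes split 5 and 15, with Birc3 (2.71) and Irf1 (1.33) in B1b cells and F3 (-8.49) and Ccl2 (-8.43) in aortas. Shear regulators split 2 and 10, with Klf2 (2.51) and Mef2c (1.2) in B1b cells and Nos3 (-9.54) and Tek (-8.16) in aortas. Immunoglobulin-family molecules split 4 and 12, with Cd2 (7.49) and Cd48 (2.20) in B1b cells and Esam (-8.71) and Bcam (-8.60) in aortas. All values in parentheses are log2 fold changes, B1b minus aorta, that passed in edgeR.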

How the data were processed

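Libraries were grouped by the genotype and cell type labels. The authors deposited a table of raw counts for RefSeq transcripts, with no normalization. Per the submitters' processing notes, the tools were CASAVA 1.8.2 and STAR 2.5.2b, with mm10 as the build. How reads were counted, and whether by strand, is not given in the sources used here. For each gene the transcript of highest total count was kept. The 117 transcripts with no gene name held 0.24% to 2.5% of the counts over all transcripts. They were kept as separate entries.

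Genotypes were compared within each kind of sample with edgeR 4.0.16 in R 4.3.3 (TMM, filterByExpr, robust quasi-likelihood F test). Contrasts between B1b cells and aortas and the difference of genotype effects came from 1 fit over 16 libraries. P-values were Benjamini-Hochberg adjusted over every gene tested, and 0.05 was the threshold. Log2 CPM for correlations used a prior count of 2, and correlations 100000 permutations. Transcript lengths came from GENCODE M21, and promoters from RefSeq. DESeq2 1.42.0 and limma 3.58.1 (voom with quality weights) were alternatives, beside other scalings, filters, transcript choices and left-out libraries. The scripts were tested on simulated data.

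The genes, lists and tests were chosen with earlier results of these data known. From each list, the text names up to 3 genes of smallest p per genotype contrast, fewer where space was short, and the 2 of largest change in each direction between tissues. A few genes that this rule takes in are not reported here. Itga4 (between the genotypes) and Itgal (between tissues), Csf1r and Adgre1 were added for their role after values were seen. Depth sets the precision of low counts, and intervals on count ratios cover counting error only.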

Additional observations from a re-analysis of the deposited data

How the results depend on the processing

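Between the genotypes, 0 of the 6 genes passed in aortas under every alternative run, and in B1b cells under all but 2, DESeq2 and no filter on low counts, each of which called 1, Selplg. The cause was not tested. Between B1b cells and aortas, the calls of Selp, Selplg, Vcam1 and Icam1 in both genotypes and of Icam2 in wild type held under every alternative run. The number of all genes called moved far more. In B1b cells it was 83, and became 197 with DESeq2, 327 with no filter, 11 when the transcripts of a gene were summed, 0 in a fit over all 16 libraries, and 35 to 103 when 1 library was left out (35 without wild-type library 1, 36 without cre library 1 and 42 without cre library 2). In aortas it was 2, and became 204 with DESeq2, 9 with limma-voom, 1 with the transcript of lowest total, 92 without the 2 low-depth aortas, 47 in the fit over all libraries, and 0 to 14 with 1 aorta left out (14 without cre aorta 4, 0 without wild-type aortas 1 or 3 or cre aorta 1). For the difference between tissues it was 3, and became 173 with DESeq2, 7 with limma-voom, 17 without the low-depth aortas and 1 to 7 with 1 library left out (7 without cre aorta 4).

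Values near 0 changed sign. With 1 library left out, the Sele log2 fold change lay between -0.071 and 0.243 for B1b cells and between -0.224 and 0.601 for aortas, and that of Icam1 in aortas ranged from -0.075 to 0.092 (-0.001 with no filter). The Sele difference between tissues was 0.101 without the low-depth aortas and -0.561 to 0.273 with 1 library left out. Relative to endothelial markers, Sele was -0.219 without the low-depth aortas and -0.248 to 0.495 with 1 left out, and Icam2 was 0.041 against Pecam1 and Cdh5 alone, 0.074 without the low-depth aortas and -0.085 to 0.06 with 1 left out. The number of correlations that passed was 1, and 0 without the low-depth aortas, a run with 8 aortas. No paired analysis was possible because the sample titles share no numbers between the genotypes.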
